A study of Mus musculus with 4 samples.

Results

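The 54 genes described here are the Wnt ligands, their Frizzled (Fzd) and Lrp receptors, the secreted proteins that modulate them, and genes that canonical Wnt signalling switches on or that carry it out in the nucleus. They were chosen by name as 19 ligands, 12 receptors, 13 modulators and 10 target and feedback genes, and all 54 were found among the 33708 autosomal rows of the gene table. The tissue was the frontonasal prominence (FNP), the swelling at the front of the embryonic head that builds the forehead and nose. It was cut away along its border with the maxillary prominence at E10.5, from FVB/NJ mouse embryos that had each reached 29 somites. RNA of 2 WT embryos (Smchd1+/+) was compared with RNA of 2 embryos homozygous for Smchd1 MommeD43 (MD43), a missense allele that came from a chemical mutagenesis screen. Smchd1 encodes a chromatin protein with roles in X inactivation, imprinting and Hox gene silencing. The study describes MD43 as gain-of-function for silencing in some contexts and closer to a partial loss for long-range chromatin contacts. It proposes that the allele is neomorphic, meaning altered in function. The comparison asked which genes differ in the developing face of MD43 embryos. The labels give 1 female and 1 male WT embryo and 2 male MD43 embryos, and 1 embryo of each genotype came from the same mother. The study's supplement gives the second WT embryo as female instead, in which case sex and genotype could not be told apart.

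Wnt proteins are lipid-modified secreted signals. At the receiving cell they bring together a Frizzled receptor and the co-receptor Lrp5 or Lrp6, which halts the destruction of beta-catenin, and beta-catenin then works with Tcf and Lef factors on target genes. R-spondins (Rspo) raise the number of Frizzled receptors by drawing the ubiquitin ligases Rnf43 and Znrf3 away from them, Sfrp proteins and Wif1 bind Wnts outside the cell, and Dkk1 blocks Lrp5 and Lrp6. In the embryonic face, Wnts from the surface ectoderm and the forebrain act on the neural crest mesenchyme between them.

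The table holds 1 merged log2 RPKM value (reads scaled to library size and to the length of the transcript) for each genotype and none for a single embryo. No test, SD or replicate comparison could therefore be made, and every difference below is a description. Reads behind each value were recovered as the geometric mean of the 2 libraries of a genotype, at an implied depth of 16055882 reads per library for WT and 22328791 for MD43, a ratio of 1.39. Differences are MD43 minus WT in log2 RPKM, given with the smallest standard error that counting these reads allows, which leaves out all variation between embryos. For genes whose reads could be separated into 2 libraries, the higher library of a genotype had a median of 1.57 times the reads of the lower in WT (161 genes) and 1.52 times in MD43 (147 genes), any difference in depth included. Smchd1 itself, whose MD43 change lies in the protein, was at 9.93 RPKM in WT and 9.84 RPKM in MD43. The median difference of the 15377 genes with 10 or more reads in a genotype was 0.01, so no shift of the whole scale had to be taken off.

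Marker genes showed which tissues the dissected piece held. Facial mesenchyme markers, with the FNP factors Alx1 and Alx4 among them, were all above 10 reads (9 of 9) and summed to 135 RPKM in WT and 133 RPKM in MD43, although Col1a1 was at least 2-fold lower. Forebrain neuroepithelium markers (10 of 10, led by Sox2 and Nes) summed to 344 RPKM in WT and 353 RPKM in MD43, so forebrain RNA was in both genotypes. Surface ectoderm markers summed to 125 RPKM in WT and 193 RPKM in MD43, with a median difference of 0.65. Of these 10 markers, 7 were at least 1.5-fold higher in MD43, against 4.24% of all genes with 10 or more reads. Diencephalon markers, which belong to the brain region behind the telencephalon, went the other way, from 13.6 RPKM in WT to 2.44 RPKM in MD43. Of 9 diencephalon markers, 7 had 10 or more reads and all 7 were at least 2-fold lower, against 2.47% of all genes. The least read in MD43, Foxb1, had 58.8 reads in WT and 1.34 in MD43. Foxb1 and Barhl2 passed the limit of 10 reads through WT alone, which favours a lower value in MD43. Red blood cell markers were higher (6 of 6 in the table, 3161 RPKM in WT and 5980 RPKM in MD43), and endothelium markers were near level, with a median difference of -0.08 over 8 genes. These lists, chosen with earlier results of these data known, moved with genotype in the same libraries as the Wnt genes. Their part in the differences below was not tested. In such bulk RNA, fewer cells of a type and less RNA per cell cannot be told apart.

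**Figure D1:**
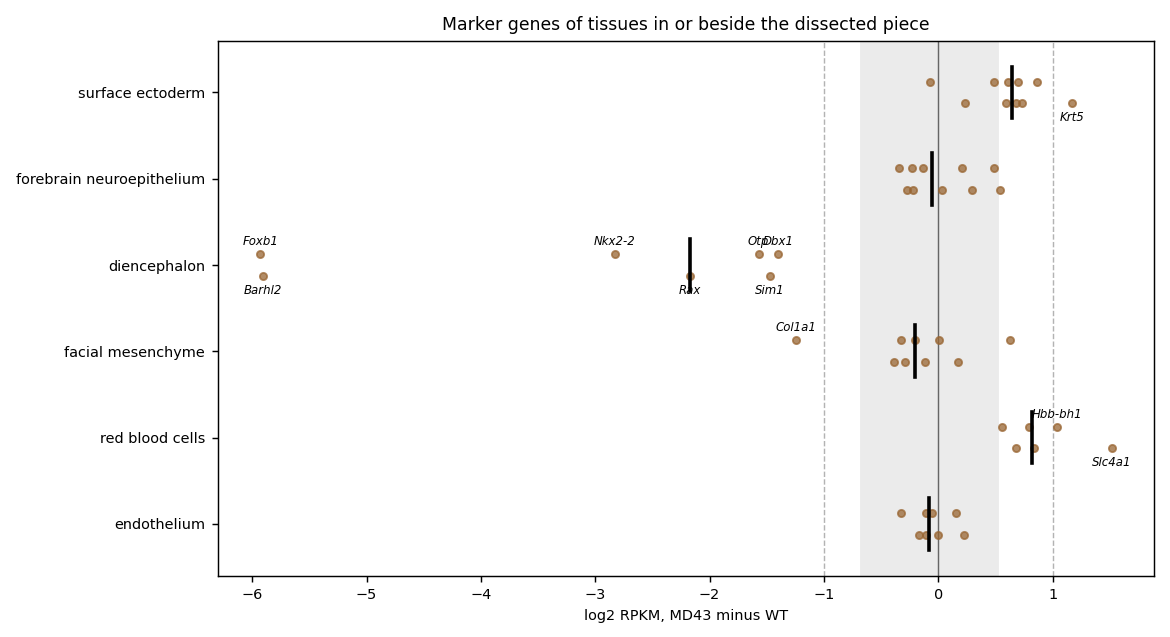
Each point is a marker gene with 10 or more reads in a genotype, placed by its MD43 minus WT difference in log2 RPKM (x axis) and grouped by tissue (y axis). Black bars are list medians, the grey band holds the middle 90% of all 15377 genes, dashed lines mark 2-fold, and named genes lie beyond 2-fold. Diencephalon markers lie far to the left (median -2.17), and surface ectoderm and red blood cell markers to the right (medians 0.65 and 0.82).

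Most Wnt genes sat at close levels in the 2 genotypes, and a small set did not. Of the 54 members, 48 had 10 or more reads in a genotype, while Wnt1, Wnt8a, Wnt10a, Wnt11, Fzd6 and Sfrp5 were below that. Of the 48, 25 were higher and 23 lower in MD43, and the median difference was 0.02. The summed level of all 54 was 416 RPKM in WT and 430 RPKM in MD43. The median size of a member's difference, in either direction, was 0.26, against 0.16 over all genes, whose median WT level was also slightly higher (log2 RPKM 2.35 against 2.09). Lower in MD43 by at least 2-fold were 5 members (10.4%), namely Rspo3, Wnt3, Sp5, Wnt2b and Notum, where 2.47% of all genes were. Higher by at least 2-fold were 2 members (4.17%), Sfrp4 and Rspo4, both with few reads, against 1.64% of all genes. At 1.5-fold, Fzd10 joined the lower members (6 in all, 12.5%, against 6.43% of all genes). Wnt2, Wnt7a and Rnf43 joined the higher members (5 in all, 10.4%, against 4.24% of all genes). Just inside the 1.5-fold limit lay Rnf43 (1.61-fold), Wnt7a (1.63-fold) and Wnt2 (1.68-fold), and just outside lay Rspo2 (1.48-fold), Sfrp1 (1.48-fold) and Nkd1 (1.39-fold). Sfrp4, Rspo4 and Wnt2 passed the limit of 10 reads through MD43 alone, which favours a higher value there, so these 3 give the count of higher members no support.

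**Figure D2:**
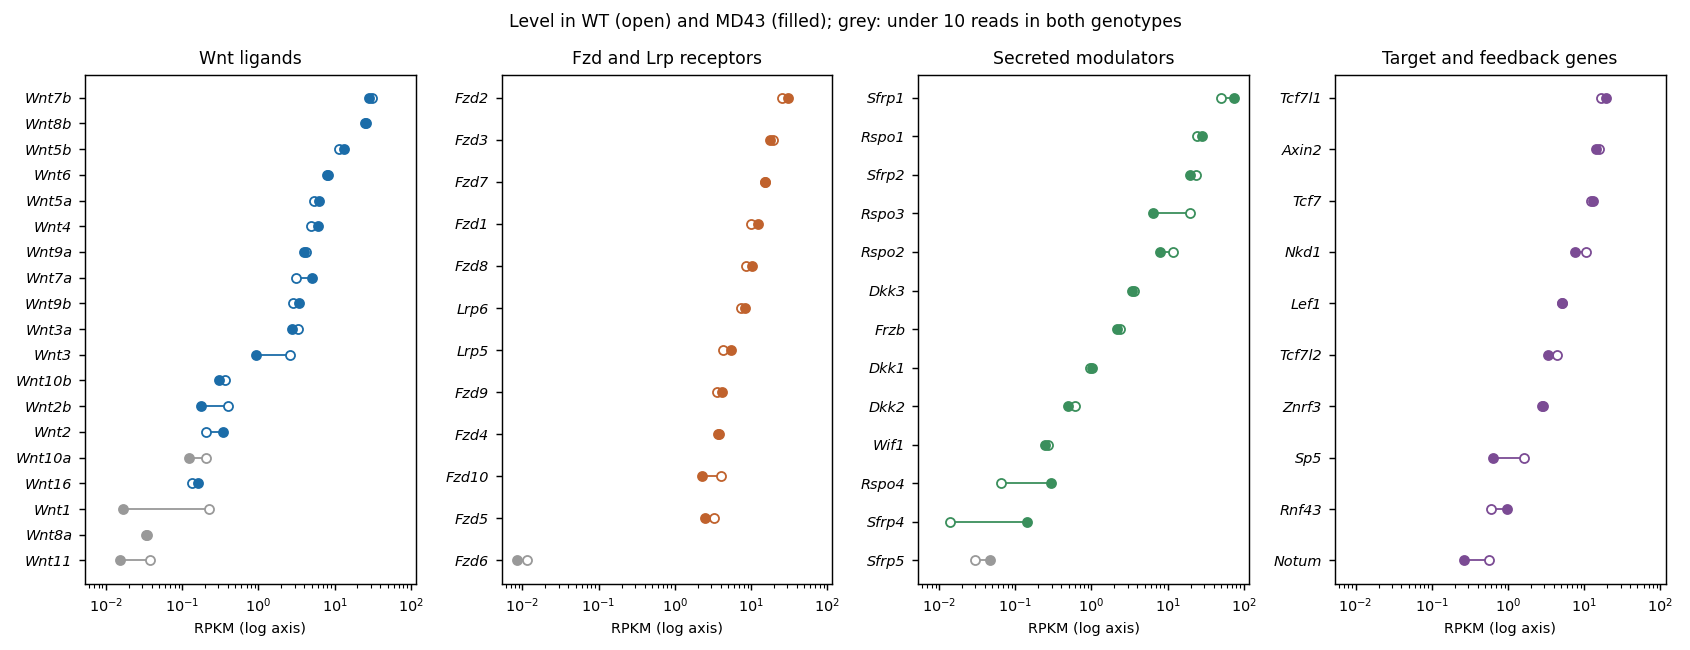
Levels of the 54 members in RPKM on a log axis (x axis), 1 row per gene ordered by level within its class, with WT as open and MD43 as filled circles, each a merged value of 2 embryos. Members with under 10 reads in both genotypes are grey, and where a library had no reads their values are set by the floor of 0.9 reads. Most pairs of circles touch, while Rspo3, Wnt3, Sp5, Notum and Wnt2b show a gap with WT higher and Sfrp4 and Rspo4 a gap with MD43 higher.

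Among the ligands, Wnt3 and Wnt2b were lower in MD43, Wnt7a was higher, and the most abundant ligands were close. Of 15 ligands with 10 or more reads, 8 were higher and 7 lower, with a median difference of 0.04 and a summed level of 104 RPKM in WT and 105 RPKM in MD43. Wnt7b, a canonical ligand of forebrain and ectoderm, was at 31.5 RPKM in WT and 28.2 RPKM in MD43 (2477 and 3081 reads, difference -0.16 ± 0.03). Wnt8b, made in the dorsal forebrain, was at 25.0 and 25.7 RPKM (1394 and 2000 reads, 0.04 ± 0.04). Wnt5b, a mostly non-canonical ligand, was at 11.3 and 13.5 RPKM (483 and 801 reads, 0.25 ± 0.06), and its gene overlaps Fbxl14 on the other strand, so reads could be shared if strand was not used in counting. These 3 ligands gave most of the summed Wnt ligand level in both genotypes.

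Wnt3, a canonical ligand needed for gastrulation that is later made in ectoderm and brain, was the ligand with the largest difference past 10 reads. It lies at chr11:103774150-103817957 on the plus strand (GRCm38), and it was at 2.57 RPKM in WT and 0.920 RPKM in MD43 (127 and 63.2 reads). The difference was -1.48 ± 0.16, or 2.79-fold lower in MD43. Wnt9b, which acts in fusion of the upper lip, is its neighbour 24328 bp away and was at 2.89 RPKM in WT and 3.38 RPKM in MD43 (0.23), so the pair did not share a direction. Wnt2b (chr3:104945272-104961921, minus strand), made in the dorsal midline of the brain and the eye, was at 0.406 RPKM in WT and 0.178 RPKM in MD43, 2.28-fold lower (-1.19 ± 0.32). Its reads were few, at 27.4 in WT and 16.7 in MD43 per library. The exact products of its counts allow several pairs, the most even being 25 and 30 reads in the WT libraries and 14 and 20 in the MD43 libraries. The diencephalon markers were also lower in MD43 and the surface ectoderm markers higher, and a link of either ligand to them was not tested.

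Wnt7a, a ligand of dorsal limb ectoderm and neuroepithelium, was at 3.09 RPKM in WT and 5.05 RPKM in MD43 (157 and 357 reads, 0.71 ± 0.10, 1.63-fold higher). The surface ectoderm markers had a median difference of 0.65, while Wnt7b, also a ligand of ectoderm, differed by -0.16. A link of Wnt7a to these markers was not tested. Wnt2 was at 0.205 RPKM in WT and 0.344 RPKM in MD43 with 7.42 and 17.3 reads. Its difference was 0.75 ± 0.45, and its smallest 95% counting interval, -0.13 to 1.63, included 0. For Wnt2 the WT libraries held either 5 and 11 reads or 1 and 55 reads, and the most even pair in MD43 was 15 and 20.

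The other ligands differed by less than 1.5-fold. Wnt6, Wnt5a, Wnt4, Wnt9a and Wnt3a were between 3.30 and 8.25 RPKM in WT and between 2.74 and 7.87 RPKM in MD43. Among these 5, Wnt4 had the largest difference upward (0.28) and Wnt3a, a canonical ligand of the dorsal neural tube, the largest downward (-0.27 ± 0.12). Wnt10b (0.363 and 0.303 RPKM) and Wnt16 (0.136 and 0.163 RPKM) were near the lower end. Wnt3a and Wnt9a, neighbours 16175 bp apart, were both slightly lower in MD43 (-0.27 and -0.09).

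Of the 4 ligands under 10 reads, Wnt1 stood out. Wnt1, a canonical ligand of the midbrain and the dorsal midline, had no read in either MD43 library. In WT the product of its 2 counts was 72, as 8 and 9 reads or a less even pair would give. With the most even pair, and 3 reads over both libraries as the floor in MD43, Wnt1 was 7.88-fold lower in MD43 per depth. That value leaves out the counting error of the WT reads, so it is not a lower limit. Its neighbour Wnt10b, 11706 bp away, differed by -0.26. Wnt11 had 7 reads in 1 WT library and 0 in the other, against 1 and 2 reads in the MD43 libraries. Wnt8a had 1 read in 1 WT library and 2 reads in 1 MD43 library, and Wnt10a had 8.12 reads in WT and 6.71 in MD43. These counts are too low for a level to be read from them.

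Receptors held the narrowest range of differences of the 4 classes, from -0.83 to 0.34. Of 11 with 10 or more reads, 7 were higher and 4 lower in MD43, none by 2-fold, with a median difference of 0.14 and a summed level of 105 RPKM in WT and 112 RPKM in MD43. Fzd2, a receptor with a part in facial growth, was at 25.5 RPKM in WT and 30.5 RPKM in MD43 (1497 and 2491 reads, 0.26 ± 0.03). Fzd3, which acts in axon guidance and planar polarity, was at 19.2 and 17.6 RPKM (3956 and 5022 reads, -0.13 ± 0.02). Fzd7 was at 15.4 and 15.1 RPKM (1121 and 1526 reads, -0.03 ± 0.04). All 3 had ample reads, and their differences were well under 1.5-fold.

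Fzd10 was the exception among the receptors. It lies at chr5:128600844-128604093 on the plus strand, and it was at 4.0 RPKM in WT and 2.25 RPKM in MD43 (209 and 164 reads, -0.83 ± 0.11, 1.78-fold lower). Fzd10 is known in the dorsal neural tube. Fzd5, a receptor of the eye field and ventral forebrain, was the next lowest (3.29 RPKM in WT, 2.47 RPKM in MD43, -0.42). The co-receptors Lrp6 (7.48 and 8.23 RPKM, 0.14) and Lrp5 (4.26 and 5.40 RPKM, 0.34) were both higher in MD43 by less than 1.5-fold. Fzd1, Fzd8, Fzd9 and Fzd4 were at 3.61 to 10.1 RPKM in WT and differed by 0.04 to 0.29. Fzd6, a receptor of hair and skin polarity, had no read in any of the 4 libraries.

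**Figure D3:**
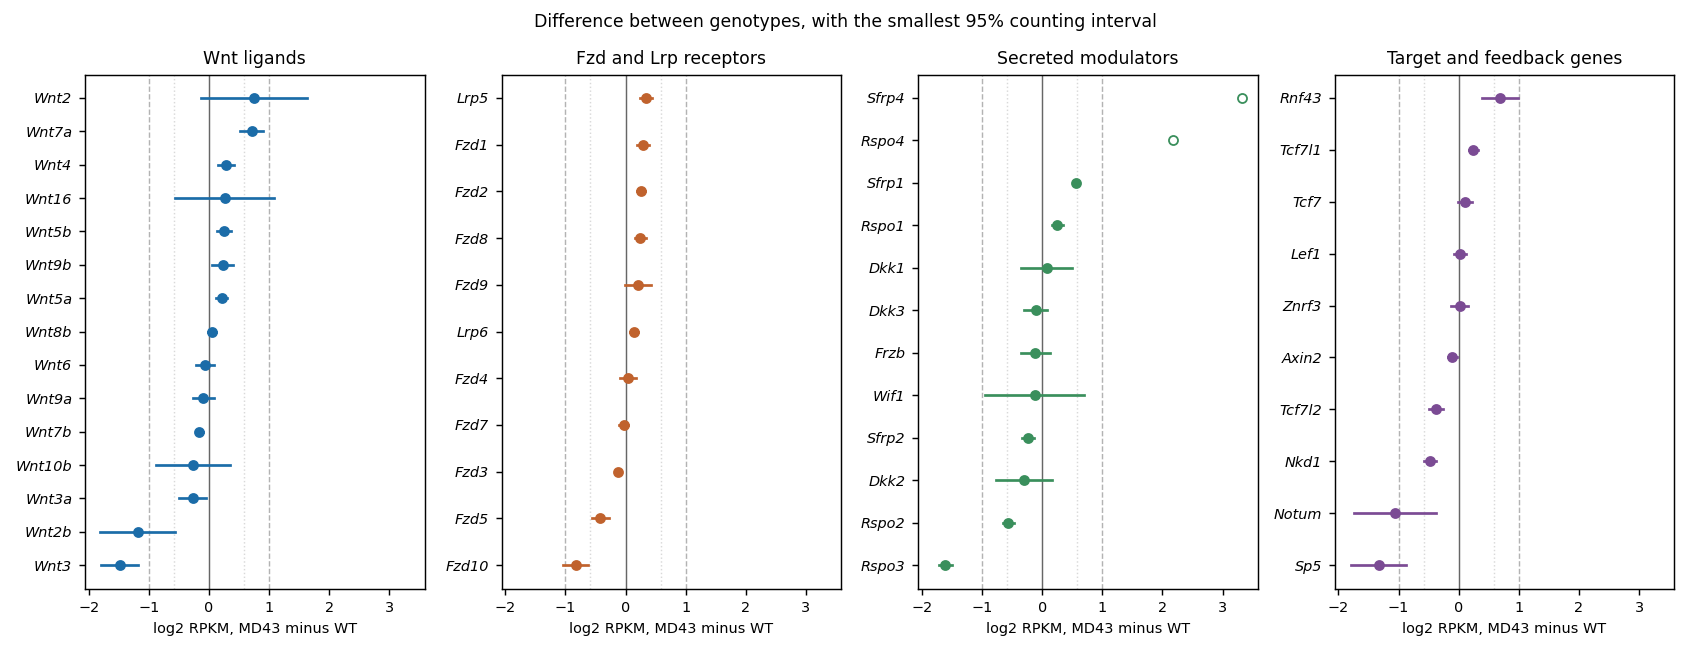
MD43 minus WT differences in log2 RPKM (x axis) of the 48 members with 10 or more reads in a genotype, by class. Bars are the smallest 95% counting intervals (covering counting error only), open points have at most 3 reads in a genotype and no bar, and dashed and dotted lines mark 2-fold and 1.5-fold. Rspo3, Wnt3 and Sp5 lie to the left with bars well clear of 0, while the receptors other than Fzd10 lie between -0.42 and 0.34.

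The modulators' differences ran from -1.61 for Rspo3 to 3.33 for Sfrp4. The upper end rested on Sfrp4 and Rspo4, which passed the limit of 10 reads through MD43 alone, and the next highest was Sfrp1 at 0.57. Of 12 with 10 or more reads, 5 were higher and 7 lower, with a median of -0.11 and a summed level of 137 RPKM in WT and 145 RPKM in MD43. The 4 R-spondins, which strengthen Wnt responses, did not move together. Rspo3 (chr10:29452416-29535867, minus strand) was at 19.7 RPKM in WT and 6.44 RPKM in MD43, from 975 and 444 reads. That is 3.05-fold lower in MD43 (-1.61 ± 0.06), the largest difference of any member with at least 50 reads. Gm48159, an antisense gene that overlaps Rspo3 on the other strand, was also lower, with 108 reads in WT and 41.9 in MD43. Without knowing the strand setting, reads in their overlap cannot be assigned to either gene. How far shared reads enter the Rspo3 difference was not tested. In all, 10 members overlap an opposite-strand gene with 10 or more reads.

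Rspo2, needed for limb and craniofacial growth, was at 11.9 RPKM in WT and 8.02 RPKM in MD43 (975 and 915 reads, -0.57 ± 0.05), 1.48-fold lower. Rspo1 was at 23.9 and 28.5 RPKM (744 and 1234 reads, 0.25 ± 0.05). Rspo4, known for nail development, was at 0.0643 RPKM in WT and 0.291 RPKM in MD43, from 2.45 and 15.4 reads (2.18 ± 0.70; chr2:151842927-151874668, plus strand). Its product of counts was 6 in WT, from 2 and 3 reads or 1 and 6, and 238 in MD43, from 14 and 17 reads or a less even pair. The higher MD43 library therefore held at least 17 reads and the higher WT library at most 6. With the most even pairs the ratio per depth was 4.46, with an exact 95% counting interval of 1.72 to 14.7, which does not allow for Rspo4 having passed the limit through MD43 alone.

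The Sfrp proteins, which bind Wnts outside the cell, were led by Sfrp1, the most abundant member of all 54. Sfrp1 was at 50.1 RPKM in WT and 74.2 RPKM in MD43 (3516 and 7239 reads, 0.57 ± 0.02), 1.48-fold higher. Sfrp2 went the other way, at 23.4 and 19.8 RPKM (807 and 953 reads, -0.24 ± 0.05). Sfrp4 (chr13:19623104-19632994, plus strand) was at 0.0141 RPKM in WT and 0.142 RPKM in MD43, a log2 difference of 3.33, the largest among the 48 members with 10 or more reads. It rested on 1 read in 1 WT library and none in the other, against a product of 176 in MD43, for which the most even pair is 11 and 16 reads. With that pair the ratio per depth was 19.4, with an exact 95% counting interval of 3.20 to 795, which does not allow for Sfrp4 having passed the limit through MD43 alone. Sfrp4 RNA was therefore at a trace level in MD43, and the size of the fold is poorly known from 1 read in WT. Sfrp5 had no read in WT and a product of 4 in MD43.

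The Dkk genes, Frzb and Wif1 were low and close. Dkk3 was at 3.64 RPKM in WT and 3.38 RPKM in MD43, Frzb at 2.37 and 2.19 RPKM, and Dkk1, an antagonist needed to form the anterior head, at 0.964 and 1.02 RPKM. Dkk2 (0.600 and 0.487 RPKM) and Wif1 (0.272 and 0.249 RPKM) were lower still, and none of the 5 differed by 1.5-fold.

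The target and feedback genes, which include the nuclear factors Tcf7, Tcf7l1, Tcf7l2 and Lef1, were split. Of the 10, 5 were higher and 5 lower, with a median of -0.05 and a summed level of 69.8 RPKM in WT and 67.9 RPKM in MD43. Apart from the nuclear factors, Axin2, Nkd1, Sp5 and Notum were lower, and Rnf43 and Znrf3 were higher. Tcf7l1, a Tcf factor that mostly represses, was at 16.5 RPKM in WT and 19.6 RPKM in MD43 (1042 and 1716 reads, 0.24 ± 0.04). Axin2, a feedback inhibitor and the most widely used readout of canonical signalling, was at 15.5 and 14.3 RPKM (1366 and 1762 reads, -0.11 ± 0.04). Tcf7 was at 12.3 and 13.2 RPKM (518 and 775 reads, 0.11 ± 0.06). Lef1 (5.09 and 5.18 RPKM) and Znrf3 (2.82 and 2.86 RPKM) were almost level. Nkd1, a feedback inhibitor, was at 10.4 RPKM in WT and 7.53 RPKM in MD43, 1.39-fold lower, and Tcf7l2, a Tcf factor of the diencephalon, was at 4.38 and 3.37 RPKM (-0.38).

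Sp5 and Notum were lower in MD43 and Rnf43 was higher. Sp5 encodes a transcription factor that canonical Wnt signalling switches on directly, and it was at 1.61 RPKM in WT and 0.640 RPKM in MD43, from 54.2 and 30.0 reads. It was 2.51-fold lower (-1.33 ± 0.23; chr2:70474923-70477729, plus strand), and the most even pair for MD43 was 30 reads in each library. Notum, an enzyme that removes the lipid from Wnts, was at 0.558 RPKM in WT and 0.268 RPKM in MD43, from 21.6 and 14.4 reads (chr11:120653788-120661175, minus strand). That is 2.08-fold lower (-1.06 ± 0.35), and the most even pairs were 15 and 31 reads in WT and 13 and 16 in MD43. Rnf43, the ligase that R-spondins counter, was at 0.602 RPKM in WT and 0.969 RPKM in MD43 (63.4 and 142 reads, 0.69 ± 0.15, 1.61-fold higher; chr11:87662722-87735539, plus strand). Its relative Znrf3 differed by 0.02.

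The promoters of Sp5 and Wnt3, the members at least 2-fold lower that hold a Tcf/Lef motif in the promoter table, are shown so that the motif can be seen in place. Each runs from 250 bases before the start site to 50 bases after it, 5′ to 3′ on the gene's strand, from RefSeq (GRCm38.p6). Capitals mark matches on either strand to the motif CTTTGAA or its variant CTTTGAT, or to the motif CTTTGTA or its variant CTTTGTT, and a match on the other strand appears as its reverse complement. Sp5 spans chr2:70474673-70474972 and Wnt3 spans chr11:103773925-103774224, both on the plus strand.
Sp5: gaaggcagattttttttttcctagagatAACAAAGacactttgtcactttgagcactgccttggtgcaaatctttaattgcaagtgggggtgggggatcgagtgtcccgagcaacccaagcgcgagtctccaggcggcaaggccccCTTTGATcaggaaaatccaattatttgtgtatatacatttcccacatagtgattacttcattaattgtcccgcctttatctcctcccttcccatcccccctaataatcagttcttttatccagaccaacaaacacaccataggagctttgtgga
Wnt3: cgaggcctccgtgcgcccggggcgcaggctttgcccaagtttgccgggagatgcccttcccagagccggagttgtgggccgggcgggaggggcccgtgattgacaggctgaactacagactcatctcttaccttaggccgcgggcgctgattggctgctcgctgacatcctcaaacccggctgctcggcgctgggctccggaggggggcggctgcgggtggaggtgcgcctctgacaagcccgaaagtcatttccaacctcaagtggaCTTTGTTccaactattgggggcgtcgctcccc

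In Sp5, CTTTGTT lies on the opposite strand at bases -222 to -216 from the start site, and CTTTGAT lies on the gene's strand at -104 to -98. In Wnt3, CTTTGTT lies on the gene's strand at 19 to 25. Of the 54 members, 37 had a promoter in the table, and 8 of these (21.6%) held at least 1 match. The others with a match were Fzd7, Lef1, Wnt5b, Wnt11, Dkk1 and Tcf7l2, none of which was among the members at least 1.5-fold different. Counted over promoters, 8 of the members' 46 (17.4%) and 16.9% of all 32851 held a match. Wnt2b had an entry and no match, and Rspo3 and Notum had no entry.

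The rest of the pathway held few genes with a large difference. A list of 104 further genes held 102 that were in the table, since Porcn and Prickle3 are X-linked, and 93 of these had 10 or more reads. Of the 93, 53 were higher and 40 lower in MD43, with a median difference of 0.02, and 2 were at least 2-fold higher (2.15%, against 1.64% of all genes) and 1 at least 2-fold lower (1.08%, against 2.47%). The median size of a difference was 0.14, against 0.26 for the 48 members, which were also lower in level, with a median WT log2 RPKM of 2.09 against 3.23. At 1.5-fold the counts were 4 higher (4.30%, against 4.24% of all genes) and 2 lower (2.15%, against 6.43%). None of the 18 destruction complex genes and none of the 13 planar cell polarity genes with 10 or more reads reached 1.5-fold. Ctnnb1, which encodes beta-catenin, was at 272 RPKM in WT and 274 RPKM in MD43 (0.01 ± 0.01), and Wls, which carries Wnts to the cell surface, was at 18.5 and 15.6 RPKM (-0.25).

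Apcdd1, a membrane antagonist of Wnt signalling that is also induced by it, had the lowest difference among these 93 genes and was at 4.89 RPKM in WT and 1.43 RPKM in MD43. It had 1012 and 410 reads, and its difference of -1.78 ± 0.06 was of the size of that of Rspo3. The R-spondin receptors Lgr5 and Lgr6 were both higher, from few reads. Lgr5 was at 0.185 and 0.443 RPKM (30.5 and 101 reads, 1.26 ± 0.21), and Lgr6 at 0.0538 and 0.120 RPKM (5.92 and 18.4 reads, 1.16 ± 0.48). Lgr4, the more abundant R-spondin receptor, was at 6.89 and 7.91 RPKM (0.20). The target genes T (4.69 and 13 reads, 1.0 ± 0.55) and Cdx1 (5.20 and 12 reads, 0.73 ± 0.54) and the co-repressor Tle2 (25.6 and 23.2 reads, -0.62 ± 0.29) completed the 1.5-fold set, and all 3 rested on a small number of reads. Lgr6, T and Cdx1 also passed the limit of 10 reads through MD43 alone.

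**Figure D4:**
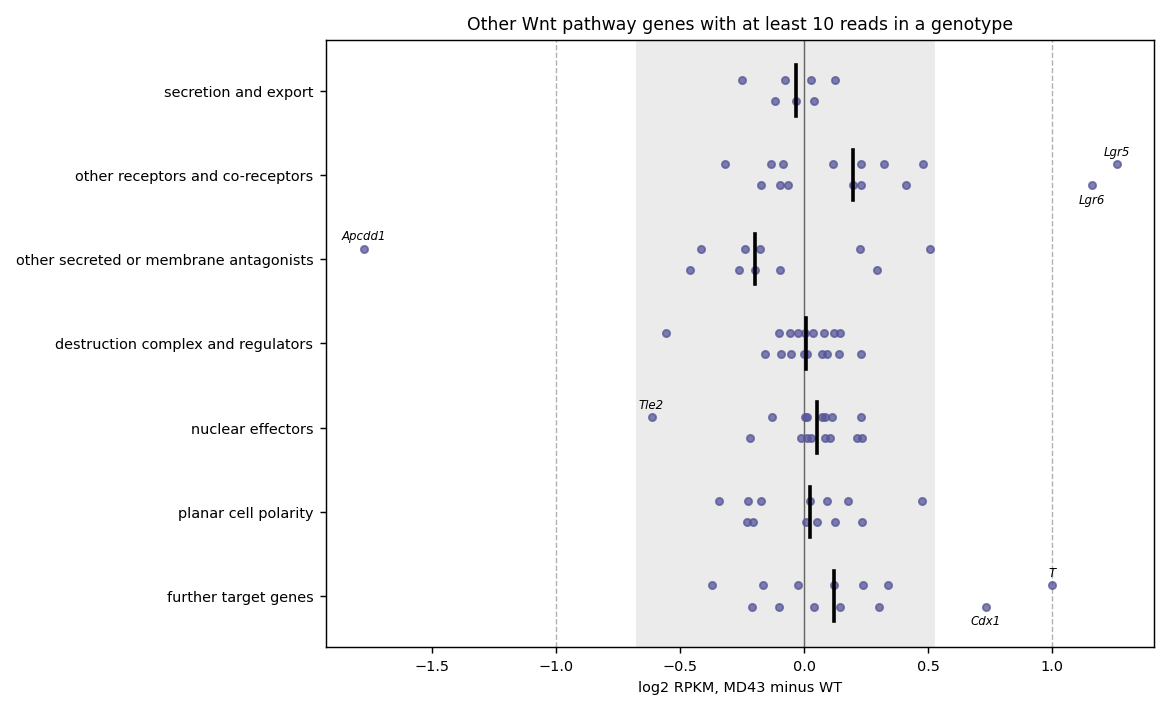
MD43 minus WT differences in log2 RPKM (x axis) of the 93 further Wnt pathway genes with 10 or more reads in a genotype, by role (y axis). Black bars are medians, the grey band holds the middle 90% of all 15377 genes, dashed lines mark 2-fold, and named genes are at least 1.5-fold different. Most points lie inside the band, with Apcdd1 far to the left and Lgr5 and Lgr6 to the right.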

How the data were processed

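RNA of the FNP of 2 WT and 2 MD43 embryos was sequenced as stranded poly(A) libraries. The authors trimmed reads with Trim Galore (0.4.4), mapped them with HISAT2 (2.0.5) to GRCm38 and quantified them in SeqMonk. The deposited values are log2 RPKM, which the authors scaled to library size and transcript length, with 1 merged column per genotype. A further 3 columns hold the authors' FDR, log-fold change and average log expression and were not used. The strand setting of counting is not given in the sources used here. No column of per-sample values was left unused.

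Rows were joined to GENCODE M21 on symbol and position (33101 matched). For genes without reads, the value is constant once exon length is taken off, with an empty library entered as 0.9 reads, and from this the product of the 2 libraries' counts was recovered. In both genotypes, 99.91% of the products below 1000 were whole, or whole after division by 0.9, or stood for 2 empty libraries (relative tolerance 1e-05). The recovery was also run on simulated data built with the same formula and floor. Such data cannot show that the deposited values follow that formula. Reads are the square root of the product, and the counting standard error from them is a lower limit. Intervals cover counting error only, and the value for Wnt1 allows for it in MD43 alone. A member counted as different with at least 10 reads in a genotype and a 2-fold or 1.5-fold difference. With 1 merged value per genotype, no test was possible.

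Full values were given for members at least 1.5-fold different and for the 3 highest of each class, and the further pathway genes named are those at least 1.5-fold different. Ctnnb1, Wls, Lgr4 and members outside that rule were named after their values were seen. The members and all lists were chosen with earlier results of these data known. Analyses used Python 3.11.15 with numpy 2.4.6, pandas 2.3.3, scipy 1.17.1 and sympy 1.14.0.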

Additional observations from a re-analysis of the deposited data

How the results depend on the processing

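None of the 11 members at least 1.5-fold different changed direction under any alternative run. An added constant or a filter on reads cannot change a direction, so only centring and the correction for GC content and length could have. Meanwhile 2 class medians near 0 changed sign, that of the ligands without a filter on reads (-0.07) and that of the targets with 50 reads required (0.02). Adding 0.1 RPKM to each level left 3 members at least 2-fold lower and moved the Sfrp4 difference to 1.09. Adding 1 RPKM left 1 member at least 2-fold different (0 higher and 1 lower), 4 at least 1.5-fold different (0 higher), and Sfrp4 at 0.17. Requiring 50 reads kept 39 members, of which 3 were at least 2-fold different (0 higher and 3 lower) and 6 at least 1.5-fold different (2 higher). Without the 2 members of at most 3 reads in a genotype, chosen after seeing the data, 0 of 46 were at least 2-fold higher and 3 at least 1.5-fold higher. These changes follow from how the alternatives are built, since a pseudocount shrinks low genes and a filter removes them. Over all genes, 193 of 15377 were at least 2-fold lower with 0.1 RPKM added. With 1 RPKM added, 9 of all genes were at least 2-fold higher and 31 lower, and 71 and 171 at 1.5-fold. With 50 reads, 39 of 12580 were at least 2-fold higher and 119 at least 2-fold lower, against 252 and 380 of 15377. At 1.5-fold, 190 of 12580 were higher and 400 lower with 50 reads, against 652 and 989 of 15377. For the other 10 members at least 1.5-fold different, 33 of 40 values stayed within the counting interval, and the 7 that left it did so with 1 RPKM added. Centring on the median of all genes, a correction for GC content and length and no filter on reads left each count of different members within 1.5 times its value. No paired analysis was possible because the 2 embryos of a genotype share 1 merged value, and leaving out a library or another test was not possible for the same reason.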
